A study of Mus musculus with 12 samples.

Results

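The integrated stress response and the unfolded protein response were examined through 10 genes in the hypothalamus of mouse pups: Atf4, Ddit3, Trib3, Chac1, Asns, Nupr1, Sesn2, Hspa5, Xbp1 and Herpud1. The genes were chosen by symbol as known ATF4 or endoplasmic reticulum (ER) stress genes, and all 10 were found among the 43280 gene rows of the count table. All 10 also passed the count filter, which left 13104 genes to be tested. Libraries came from 6 control pups and 6 pups exposed to modified maternal separation (MMS), all C57/Bl6 males at postnatal day 6, with 1 pup per library. In MMS a daily session of separation with warming was combined with repeated placing of the pup on its back, and the last session was on the day of dissection. Males of 1 litter were divided between the groups. Tissue was taken directly after the last session, so an acute response to that session and the effect of the earlier ones cannot be told apart. The litter of each library is not in the labels, and the tests treat pups as independent.

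The integrated stress response starts when a kinase that senses a lack of amino acids, misfolded protein in the ER, viral RNA or a lack of haem phosphorylates the translation factor eIF2. Most translation then slows, while the mRNA of the transcription factor ATF4 is translated more, and ATF4 switches on genes for amino acid supply, redox balance and, later, cell death. In the unfolded protein response the ER sensors PERK, IRE1 and ATF6 react to misfolded protein, with PERK feeding into eIF2, IRE1 splicing the Xbp1 mRNA and ATF6 inducing ER chaperones. Hypothalamic neurons that secrete peptide hormones carry a heavy load of protein through the ER, and ER stress in the hypothalamus is known from work on feeding and obesity. Because ATF4 is controlled largely by translation and XBP1 by splicing, the mRNA counts of Atf4 and Xbp1 do not measure the activity of either protein.

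The DNA through which these factors act is shown first, as background to the genes that hold these elements. ATF6 and XBP1 bind the ER stress element, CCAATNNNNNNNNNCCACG, and ATF4 binds the amino acid response element, searched here as TGATGNAAT. Both were searched on both strands in the 250 bases before and the 50 bases after each start site in the RefSeq promoter table of GRCm38.p6, which holds all 10 genes. Hspa5, the gene of the ER chaperone BiP, held 1 ER stress element. It began 65 bases before the start site, on the plus strand. The 250 bases upstream of the RefSeq start site of Hspa5 (chr2:34771840-34772089, plus strand) are printed 5′ to 3′ with the element in capitals. In GENCODE M21 the gene spans chr2:34771970-34777547. The element and the later part of the printed bases lie inside that span, so they are not upstream of the GENCODE 5′ end.
Hspa5 upstream: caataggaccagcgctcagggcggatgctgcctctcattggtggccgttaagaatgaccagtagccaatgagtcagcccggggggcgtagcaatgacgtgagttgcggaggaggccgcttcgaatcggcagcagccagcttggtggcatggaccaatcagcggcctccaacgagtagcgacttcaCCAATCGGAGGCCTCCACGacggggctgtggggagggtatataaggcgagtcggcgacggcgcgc

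The element was present in 39 of 32851 promoter windows (0.119%), which belonged to 37 of 27025 genes. Of 138 further genes of these pathways listed from general knowledge, 109 were matched to the promoter table, 6 of them through an older symbol, and 9 of the 109 held the element. They encode ER chaperones and folding enzymes (Hsp90b1, Calr, Canx, Pdia6, Dnajc3, Creld2 and Ero1b) and parts of ER associated degradation (Syvn1 and Derl3), and Hsp90b1 held 2. Each is printed in the direction that reads CCAAT first, with the fixed letters in capitals and the free bases in lower case. Hspa5 is included for comparison.
Hspa5, chr2:34772025-34772043, plus strand: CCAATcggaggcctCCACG
Hsp90b1 site 1, chr10:86705638-86705656, minus strand: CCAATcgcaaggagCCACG
Hsp90b1 site 2, chr10:86705533-86705551, plus strand: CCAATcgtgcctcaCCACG
Calr, chr8:84847075-84847093, plus strand: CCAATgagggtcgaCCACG
Canx, chr11:50325800-50325818, minus strand: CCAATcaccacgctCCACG
Pdia6, chr12:17266491-17266509, plus strand: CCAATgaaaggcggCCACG
Dnajc3, chr14:118937827-118937845, plus strand: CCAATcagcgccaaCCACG
Creld2, chr15:88819520-88819538, minus strand: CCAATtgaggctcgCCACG
Ero1b, chr13:12565682-12565700, minus strand: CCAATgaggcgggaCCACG
Syvn1, chr19:6046532-6046550, plus strand: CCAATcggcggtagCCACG
Derl3, chr10:75893242-75893260, minus strand: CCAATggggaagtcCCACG

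Nupr1, a small stress-induced nuclear protein and ATF4 target, was the only one of the 10 genes with a match to TGATGNAAT. The match lay on the strand opposite to the gene and began 111 bases before the start site. The pattern was less rare than the ER stress element, in 317 of 32851 windows (0.965%), and in 5 of the 109 matched pathway genes (Fgf21, Pycr1, Aars, Gars and Iars). The pattern is narrow in its last base. With that base left free (TGATGNAA, which contains every longer match and was added after the promoters had been seen), 5 of the 10 genes matched, Nupr1, Asns, Chac1, Herpud1 and Trib3, as did 15 of the 109 wider genes and 3.97% of all windows. The 250 bases upstream of Nupr1 (chr7:126625471-126625720, minus strand) carry it in capitals. The capitals read ATTGCATCA on the strand of the gene, which is TGATGCAAT on the other. The gene itself lies at chr7:126623249-126630861 on the minus strand in GENCODE M21. The printed bases lie inside that span, so they are upstream of the RefSeq start site and not of the GENCODE 5′ end.
Nupr1 upstream: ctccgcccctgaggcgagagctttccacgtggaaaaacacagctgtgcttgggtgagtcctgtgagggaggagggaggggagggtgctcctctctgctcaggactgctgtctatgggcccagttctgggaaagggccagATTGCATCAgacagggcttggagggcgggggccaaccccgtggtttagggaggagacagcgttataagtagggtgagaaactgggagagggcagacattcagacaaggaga

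The shorter motifs were common in all windows and more frequent in the pathway genes. The CCACG core of the ER stress element stood in 7 of the 10 windows and in 73 of the 109 wider genes. It stood in 32.8% of all windows and 35.5% of all genes. The CRE core TGACG stood in 6 of the 10 and in 46 of the 109, against 20.8% of windows and 23% of genes. The reason for the higher shares was not tested. CCACG is contained in the full ER stress element. A match is a run of letters and not a measured binding site.

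Total counts ranged from 3765759 to 6560620 per control library and from 3218777 to 5344080 per MMS library. Of 15 hypothalamic marker genes 14 were tested and their summed level was 1298 to 2231 CPM (counts per scaled library total) in controls and 1566 to 2134 CPM in MMS pups. Of 5 pituitary markers 0 passed the count filter, but their summed level was uneven. It was 0.23 to 25.1 CPM in controls, highest in control 6, and 0 to 41.2 CPM in MMS pups, highest in MMS 3. The libraries MMS 2 and MMS 4 stood apart from all others on the first principal component, at 57.8 and 46.3 against -14.4 to -3.04. Both were also low in ependymal markers (8 of 9 tested), with a summed level of 19.1 and 37.4 CPM. The range was 75.9 to 172 CPM in controls and 70.5 to 160 CPM in the other MMS pups. Neuronal markers were at 4703 and 4766 CPM in the pair, 6106 to 6800 CPM in controls and 5500 to 6760 CPM in the other MMS pups. MMS 1 and MMS 3, at 5707 and 5500 CPM, were also below every control. Control 3 carried choroid plexus transcripts at 1762 CPM, against 10.3 to 42.4 CPM in the other controls and 9.22 to 15.3 CPM in MMS pups. Results are therefore given with all 12 libraries and, for the 10 genes and for wider genes whose difference moved by over 1.5 times, also without MMS 2 and MMS 4. In bulk tissue fewer cells of a type and less RNA per cell cannot be told apart.

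To ask whether MMS altered these stress pathways, counts were compared between the groups with the quasi-likelihood test of edgeR. Of the 10 genes 0 differed between MMS and control pups after adjustment over all genes tested, against a background of 0% of the 13104 genes. The same held for the 10 genes in DESeq2, which called 7 other genes, and in limma-voom, which called 0 of all genes. At an unadjusted p under 0.05, 2 of the 10 genes were lower in MMS pups (Atf4 and Nupr1) and 0 were higher. The background at that threshold was 9.08% of all genes, 4.68% higher and 4.4% lower, so a list of this size would hold about 1 such gene. The groups did not overlap in 0.389% of all genes and overlapped in all 10 of these. By direction 5 of the 10 were higher and 5 lower, with a median log2 fold change of 0.02 against 0.0009 over all genes.

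**Figure D1:**
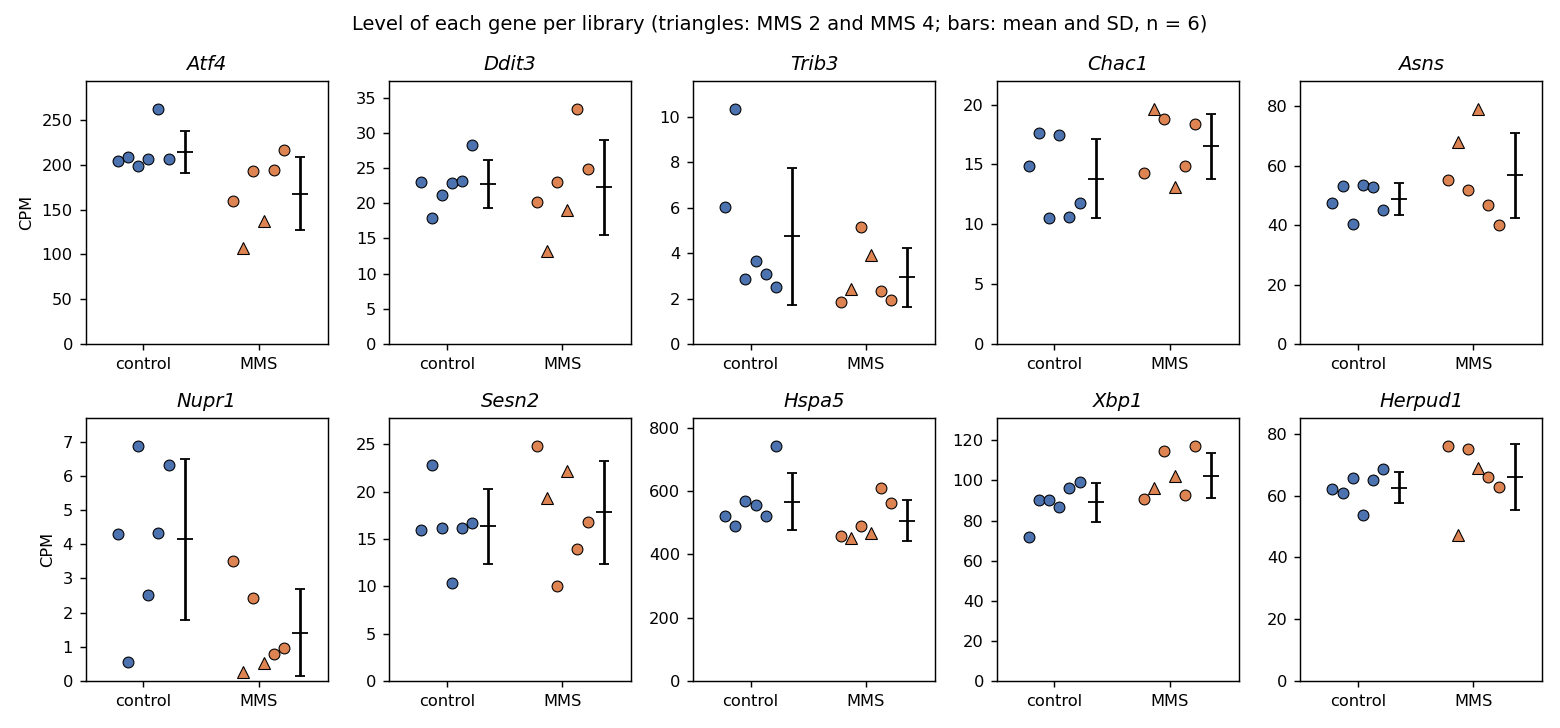
Level of each of the 10 genes in every library, in CPM (linear axis from 0), for 6 control pups (blue) and 6 MMS pups (orange), with the mean and SD of each group beside the points and triangles for MMS 2 and MMS 4. The groups overlap in every panel, and the lowest points of Atf4 and Nupr1 are the 2 triangles.

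Atf4 is the transcription factor at the centre of the integrated stress response (chr15:80255184-80257541, plus strand; gene coordinates here and below are those of GENCODE M21 on GRCm38, the assembly of mm10). Its level in control pups had a lowest value of 199, a median of 206 and a highest value of 262 CPM, and in MMS pups 107, 176 and 217 CPM. Controls lay close together apart from control 5 at 262 CPM, and 5 of the 6 MMS libraries were below every control. The mean was 168 ± 41.1 CPM in MMS pups against 214 ± 23.5 CPM in controls (SD, n = 6), a log2 fold change of -0.35 (SE 0.14; 95% interval -0.64 to -0.07; adjusted p = 0.543). The 2 lowest values, 107 and 137 CPM, were those of MMS 2 and MMS 4. Without these libraries the difference was -0.17 (SE 0.10, adjusted p = 0.961), and without control 5 it was -0.28 (SE 0.14, adjusted p = 0.648), past the unadjusted threshold in neither case.

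Ddit3 encodes CHOP, the factor that ATF4 induces under prolonged stress and that promotes cell death (chr10:127290774-127296288, plus strand). Control levels had a lowest value of 17.9, a median of 22.98 and a highest value of 28.2 CPM, against 13.2, 21.6 and 33.3 CPM in MMS pups. Both the highest and the lowest library were MMS pups, MMS 5 and MMS 2. The log2 fold change was -0.03 (SE 0.18; 95% interval -0.41 to 0.35; adjusted p = 0.961), and its sign turned to 0.17 without MMS 2 and MMS 4. The exons of Ddit3 overlap those of Mars on the opposite strand, and because it is not known whether strand was used in counting, reads of the pair may be mixed.

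Asns, the enzyme that makes asparagine and a classical target of ATF4 (chr6:7675169-7693254, minus strand), had the opposite sign to Atf4. Control levels were 40.4 to 53.6 CPM with a median of 50.2, and MMS levels 39.9 to 78.9 CPM with a median of 53.4. The highest values, 68.0 and 78.9 CPM, were those of MMS 2 and MMS 4, the libraries lowest in Atf4. The log2 fold change was 0.23 (SE 0.15; 95% interval -0.08 to 0.53; adjusted p = 0.620) and was -0.0023 without the pair.

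Chac1 encodes an enzyme that degrades glutathione and is induced through ATF4 (chr2:119351229-119354381, plus strand). It had a lowest value of 10.6, a median of 13.3 and a highest value of 17.7 CPM in controls, and in MMS pups of 13.1, 16.6 and 19.6 CPM. In 3 MMS libraries (MMS 2, MMS 3 and MMS 6) Chac1 was above every control. These were also the 3 libraries with the lowest total counts. The counts of Chac1 were 56 to 76 in every library, while the totals ran from 3218777 to 6560620. The part of depth in its CPM values was not tested. The difference was 0.26 (SE 0.18; 95% interval -0.12 to 0.64; adjusted p = 0.648), and it was 0.27 without MMS 2 and MMS 4.

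Trib3, a pseudokinase that ATF4 and CHOP induce and that inhibits AKT (chr2:152337422-152344032, minus strand), was near the lower limit of detection with 6 to 38 counts per library. Controls ranged from 2.53 to 10.3 CPM with a median of 3.38, and MMS pups from 1.87 to 5.15 CPM with a median of 2.39. In 4 MMS libraries the level was below every control, and control 2 at 10.3 CPM was the highest value of all. The log2 fold change of -0.65 (SE 0.38; 95% interval -1.45 to 0.14; adjusted p = 0.591) was -0.29 without control 2 and -0.73 without MMS 2 and MMS 4.

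Sesn2, a stress-induced leucine sensor that restrains mTORC1 (chr4:132492032-132510501, minus strand), had a lowest value of 10.3, a median of 16.2 and a highest value of 22.8 CPM in controls. In MMS pups these were 9.99, 18.0 and 24.8 CPM. The MMS range thus enclosed the control range, and the difference was 0.14 (SE 0.21; 95% interval -0.30 to 0.57; adjusted p = 0.840), or 0.02 without MMS 2 and MMS 4.

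Nupr1 gave the smallest unadjusted p among the 10 genes and ranked 154 of the 13104 genes by p. It was also the scarcest, with 166 counts over all libraries. The counts of control 1 to control 6 were 20, 2, 41, 11, 28 and 30, and those of MMS 1 to MMS 6 were 15, 1, 8, 3, 4 and 3. In 4 of the 6 MMS libraries Nupr1 thus rested on 4 counts or fewer, which was so in 1 control. In CPM the controls had a lowest value of 0.543, a median of 4.31 and a highest value of 6.88, and the MMS pups 0.269, 0.875 and 3.51. In 4 controls the level was above every MMS library, while control 2 was lower than all but 2 of the MMS libraries, MMS 2 and MMS 4. The fitted log2 fold change was -1.60 (SE 0.53; 95% interval -2.70 to -0.49; adjusted p = 0.543), a fold of 0.330. Without MMS 2 and MMS 4 it was -1.13 (SE 0.51, adjusted p = 0.961).

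Markers of some other cells had lower levels in MMS pups as well. All 8 tested ependymal markers had negative log2 fold changes, with a median of -0.76, as had all 4 tested markers of meninges and fibroblasts (median -0.42) and all 5 of red blood cells (median -0.36). In each of these lists 1 marker passed the unadjusted threshold. The choroid plexus, neuronal, microglial and endothelial lists each held 1 such lower marker as well, and the oligodendrocyte list 1 higher. Over all tested genes 9.08% passed. The smallest adjusted p of any marker was 0.385 (edgeR), in the endothelial list. All 3 tested choroid plexus markers were also lower, with a median of -0.18 and a lowest value of -6.58. Their list was at 1762 CPM in control 3, while the other controls (10.3 to 42.4 CPM) overlapped the MMS pups (9.22 to 15.3 CPM). Astrocyte, microglial and endothelial markers went both ways (2 of 5 higher in each), as did those of the oligodendrocyte lineage and of neurons (3 of 5 higher in each). Control 2, the control with least Nupr1, had an ependymal sum of 117 CPM and a meningeal sum of 149 CPM, inside the control ranges of 75.9 to 172 and 92.8 to 220 CPM. MMS 5, with 4 counts of Nupr1, had an ependymal sum of 160 CPM, a meningeal sum of 46.5 CPM, the lowest of all 12 libraries, and a red blood cell sum of 616 CPM, also the lowest. The part of these cells in the Nupr1 and Atf4 values was not tested.

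**Figure D2:**
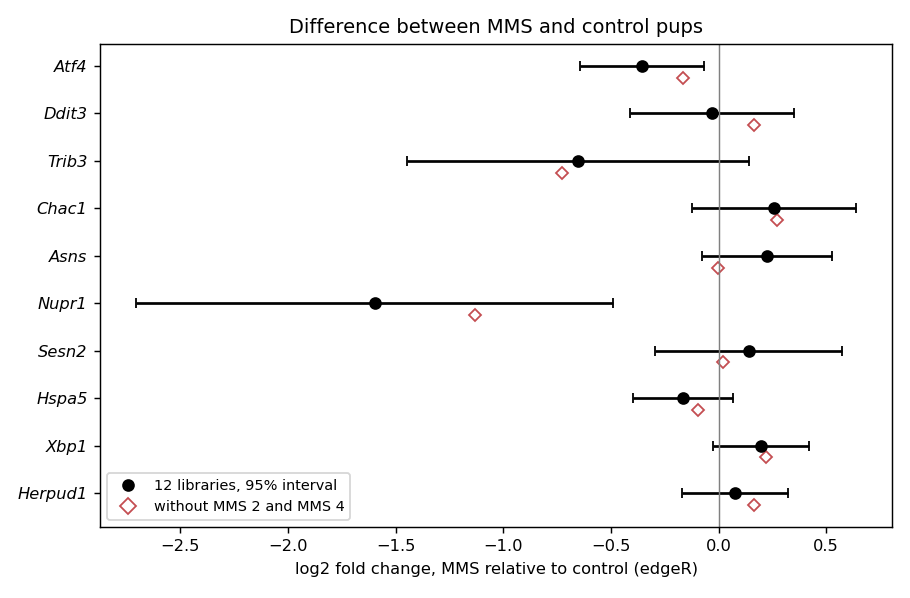
Log2 fold change of each of the 10 genes, MMS relative to control, with all 12 libraries (filled circles with 95% intervals) and without MMS 2 and MMS 4 (open diamonds). Only the intervals of Atf4 (-0.64 to -0.07) and Nupr1 (-2.70 to -0.49) leave out 0, and the diamonds of Atf4, Ddit3, Asns and Nupr1 are shifted furthest from their circles.

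Hspa5 encodes BiP, the main ER chaperone, whose mRNA is a standard gauge of the unfolded protein response (chr2:34771970-34777547, plus strand). It was deeply covered, at 1613 to 3522 counts per library. Control levels had a lowest value of 491, a median of 538 and a highest value of 742 CPM, and MMS levels 451, 477 and 608 CPM. In 4 MMS libraries Hspa5 was below every control. The difference was -0.16 (SE 0.11; 95% interval -0.40 to 0.07; adjusted p = 0.637), and without control 6, the library at 742 CPM, it was -0.06. Without MMS 2 and MMS 4 it was -0.09. The SE was 0.10 without control 6 and 0.11 without MMS 2 and MMS 4. The upper limit of 0.07 is that of the 95% interval with all libraries. It is not a firm bound on a rise, since leaving out these libraries moves it higher.

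Xbp1, the substrate of IRE1 and itself a target of ATF6 (chr11:5520659-5525893, plus strand), had the opposite sign. Its lowest, median and highest levels were 71.7, 90.3 and 99.0 CPM in controls, and in MMS pups 90.8, 99.1 and 117 CPM. In 3 MMS libraries Xbp1 was above every control, and control 1 at 71.7 CPM was below every other library. The difference of 0.20 (SE 0.11; 95% interval -0.03 to 0.42; adjusted p = 0.571) was 0.22 without MMS 2 and MMS 4. Reads from the 3′ end do not cover the IRE1 splice site, so spliced and unspliced Xbp1 were counted together.

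Herpud1, an ER membrane protein of the degradation machinery that PERK and ATF6 induce (chr8:94386438-94395377, plus strand), was spread more widely in MMS pups. Control levels were 53.9 to 68.5 CPM with a median of 63.5, and MMS levels 47.3 to 76.1 CPM with a median of 67.4. MMS 2 was below every control and 3 MMS libraries were above. The difference was 0.08 (SE 0.12; 95% interval -0.17 to 0.32; adjusted p = 0.845), or 0.16 without MMS 2 and MMS 4.

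The surrounding pathway was described with 8 lists that together held 138 genes, of which 127 were tested. By direction 63 were higher and 64 lower in MMS pups, with a median log2 fold change of -0.002, and 0 passed after adjustment in edgeR, DESeq2 or limma-voom. An unadjusted p under 0.05 was reached by 14 genes (11%), of which 9 were higher and 5 lower, against 9.08% of all genes. The smallest adjusted p among them was 0.471. Several genes known as sharp markers of an active response were too scarce to test, among them Atf3 with 27 counts over all libraries, Gdf15 with 11 and Fgf21 with 0.

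Upstream, in the list of eIF2 kinases, eIF2 and eIF2B, 14 of 15 genes were tested, 2 passed the unadjusted threshold higher and 1 lower. Impact, an inhibitor of the amino acid sensing kinase GCN2, differed by 0.67 (SE 0.28, adjusted p = 0.543), with 308 and 220 CPM in MMS 2 and MMS 4 against 83.3 to 126 CPM in controls. Without these libraries the difference was 0.11. Gcn1l1, a partner that GCN2 needs, was lower by -0.59 (SE 0.26, adjusted p = 0.543) with 3 MMS libraries below every control, at 11 to 80 counts per library, and by -0.38 without control 1. Eif2ak1, the haem-regulated kinase, was higher by 0.31 (SE 0.14, adjusted p = 0.543), with 4 MMS libraries above every control. Ppp1r15a, the phosphatase subunit that ends the response and is itself induced by it, was at 7.56 ± 1.75 CPM in MMS pups against 10.8 ± 5.30 CPM in controls (SD, n = 6; difference -0.51, adjusted p = 0.556). Control 3, at 21.3 CPM, was well above the other controls at 7.56 to 10.5 CPM, and without it the difference was -0.19.

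Among ATF4-linked transcription factors and effectors 11 of 18 were tested, with 2 higher and 1 lower at the unadjusted threshold. Ddit4, an mTORC1 inhibitor that stress, hypoxia and glucocorticoids all induce, had the largest difference of the wider genes, 0.97 (SE 0.36, adjusted p = 0.543). Its levels were 156 and 139 CPM in MMS 2 and MMS 4, 39.8 to 59.0 CPM in the other MMS pups and 30.0 to 51.4 CPM in controls. Without the pair the difference was 0.21 (adjusted p = 0.964). Atf5, a factor related to ATF4 and translated under stress in the same way, had the mirror pattern, with a difference of -0.74 (SE 0.28, adjusted p = 0.543). It was at 18.5 and 20.9 CPM in the pair, 43.9 to 75.7 CPM in the other MMS pups and 61.2 to 91.4 CPM in controls, and 5 of the 6 MMS libraries were below every control. Without the pair it was -0.38 (adjusted p = 0.961). Vldlr, a lipoprotein receptor induced through ATF4, was 0.34 higher (SE 0.14, adjusted p = 0.543), or 0.19 without the pair.

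All 21 genes of amino acid synthesis and transport were tested, and 1 passed the unadjusted threshold. This was Slc7a11, the cystine transporter, which was lower by -0.41 (SE 0.17, adjusted p = 0.543), or by -0.21 without MMS 2 and MMS 4. Controls lay between 60.9 and 72.8 CPM, and the MMS range of 33.3 to 77.5 CPM held both 4 libraries below and 1 above every control. The serine synthesis enzyme Phgdh did not pass (-0.24, SE 0.17, and -0.15 without the pair). The list of cytosolic aminoacyl-tRNA synthetases held 19 genes, the tRNA exporter Xpot included, and some of its members are ATF4 targets. Of these 19 genes 10 were higher and 9 lower. Sars, which charges tRNA with serine, was the 1 gene past the unadjusted threshold, at 0.24 (SE 0.10, adjusted p = 0.543) with 5 of 6 MMS libraries above every control.

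Of the 8 unfolded protein sensors and their proteases, 1 was higher and 1 lower at the unadjusted threshold. Mbtps2, the site-2 protease that releases ATF6 from the membrane, had the smallest p of all wider genes (difference 0.69, SE 0.20, adjusted p = 0.471). Controls ranged from 10.6 to 17.7 CPM and MMS pups from 15.1 to 26.9 CPM, with 4 MMS libraries above every control, and the difference was 0.53 without MMS 2 and MMS 4. Mbtps1, the site-1 protease that cuts ATF6 first, was on the other side, at -0.35 (SE 0.17, adjusted p = 0.552). It was at 53.2 and 49.5 CPM in MMS 2 and MMS 4 against 94.0 to 117 CPM in the other libraries, and the difference was -0.08 without them. Atf6b, a relative of Atf6, was lower by -0.57 (SE 0.20, adjusted p = 0.543), with 37.9 and 53.9 CPM in the pair and 92.4 to 124 CPM in controls, and by -0.30 without the pair. Atf6 itself differed by 0.22 (SE 0.19), or 0.10 without the pair.

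ER chaperones and folding enzymes lay close to 0. Of 21 tested, 9 were higher and 12 lower, with a median of -0.04, and 1 passed the unadjusted threshold, Uggt1, the sensor of glycoprotein folding, at -0.37 (SE 0.16, adjusted p = 0.543) and -0.17 without MMS 2 and MMS 4. The secreted ER protein Manf was at 85.7 and 92.8 CPM in MMS 2 and MMS 4 and at 170 to 285 CPM in the other libraries. Its difference was -0.40 (SE 0.24, adjusted p = 0.604) and was -0.11 without the pair.

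The genes whose ER stress elements are printed above showed differences close to 0. Hspa5 was at -0.16, Calr and Dnajc3 at -0.09, Hsp90b1 and Pdia6 at -0.06, Syvn1 at -0.002, Canx at 0.007, Creld2 at 0.06 and Ero1b at 0.12, and Derl3 was too scarce to test. Among these 9 tested pathway genes 0 passed the unadjusted threshold in edgeR. Of all 17 tested genes with the element 10 were higher and 7 lower (median 0.06), and 1 passed it, Spats2l at 0.46. Of 50 tested genes with a match to TGATGNAAT 29 were higher and 21 lower, with a median of 0.06. The unadjusted threshold was passed by 4 higher and 3 lower. Over all tested genes 9.08% passed it, 4.68% higher and 4.4% lower. Nupr1 at -1.60 was the lowest of all 50, on a mean of only 13.8 counts. Aars, Gars, Iars and Pycr1, which share its match, were at 0.32, 0.15, 0.10 and 0.07.

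In ER associated degradation 16 of 17 genes were tested, with 2 higher and 0 lower at the unadjusted threshold. They were Ufd1l (0.33, SE 0.10, adjusted p = 0.518) and Nploc4 (0.31, SE 0.12, adjusted p = 0.543), whose products form the dimer that brings ubiquitinated proteins to the ATPase VCP. Ufd1l was at 53.3 to 61.0 CPM in controls and 60.2 to 83.0 CPM in MMS pups, and 5 of 6 MMS libraries were above every control. Its difference was 0.33 without MMS 2 and MMS 4 as well. Vcp itself was at 419 ± 39.2 CPM in MMS pups against 456 ± 23.6 CPM in controls (SD, n = 6; difference -0.12, adjusted p = 0.658), with a difference of -0.04 without the pair. In the translocon and signal peptide list 17 of 18 genes were tested and Spcs3, a signal peptidase subunit, was the 1 gene past the unadjusted threshold, at 0.49 (SE 0.21, adjusted p = 0.543) and 0.13 without the pair.

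**Figure D3:**
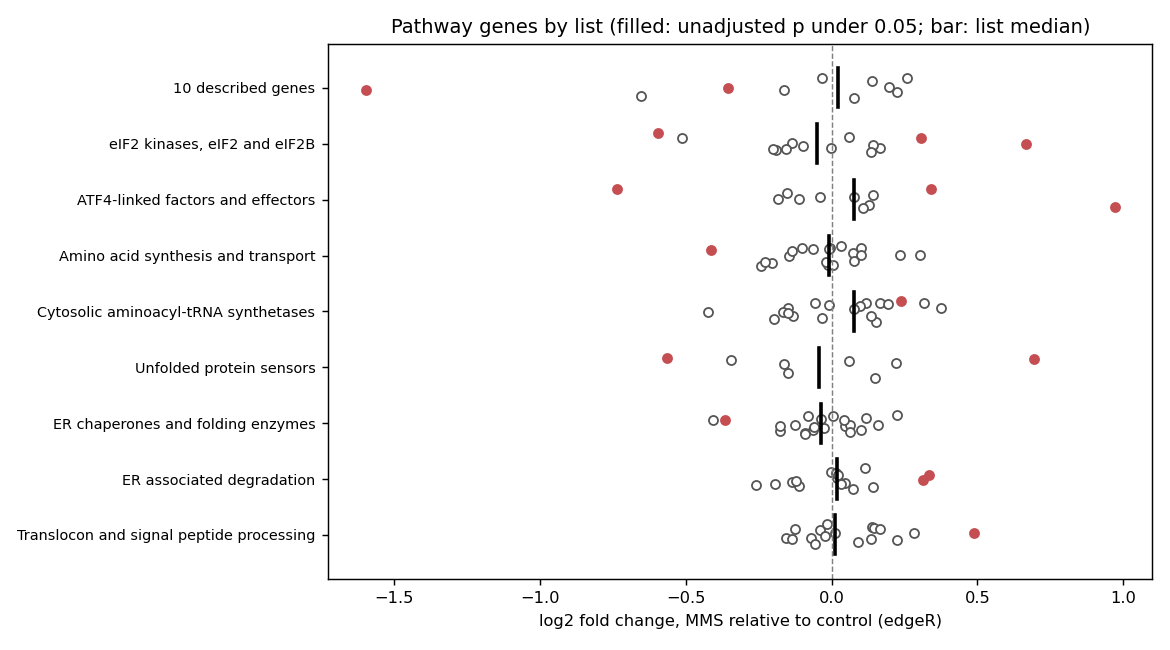
Log2 fold change, MMS relative to control, of every tested gene in the 10-gene set and in the 8 wider lists (1 point per gene, placed at random heights within its row), with the list median as a bar, genes at an unadjusted p under 0.05 filled, and the median of all genes as a dashed line. List medians lie between -0.05 and 0.08, and the points furthest out are Nupr1 at -1.60 and Ddit4 at 0.97.

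MMS 2 and MMS 4 were compared with the other libraries across the pathway, as a description. In 14.6% of all tested genes these were the 2 highest of the 12 libraries, and in 15.1% the 2 lowest. Of the 10 genes they were highest in 1 (Asns) and lowest in 2 (Atf4 and Nupr1), and of the 127 wider genes highest in 17 (13.4%) and lowest in 23 (18.1%). Of the 21 ER chaperones both were lowest in 6 (Hsp90b1, Hyou1, Calr, Manf, Ero1l and Uggt1) and highest in 2 (Dnajb11 and Ppib). Of the 21 amino acid genes both were lowest in 4 (Slc7a11, Slc7a5, Slc3a2 and Slc7a1) and highest in 2 (Psph and Gpt2). Of the 8 sensors both were lowest in 3 (Atf6b, Mbtps1 and Creb3) and highest in 1 (Mbtps2). Of the 19 genes in the tRNA synthetase list both were highest in 4 (Aars, Eprs, Gars and Hars) and lowest in 3 (Farsa, Farsb and Nars). Of the 11 ATF4-linked factors and effectors they were highest in 2 (Ddit4 and Vldlr) and lowest in 3 (Atf5, Sqstm1 and Map1lc3b). In the eIF2 list (14 tested) both were highest in 2 and lowest in 0. The counts were 2 and 3 in the degradation list (16 tested), and 2 and 1 in the translocon list (17 tested). The shares over all wider genes lay near those over all genes. Single lists, of few genes each, spread more widely. Both were lowest in 0% (eIF2) to 37.5% (sensors) of a list, and highest in 9.52% to 21.1%.

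**Figure D4:**
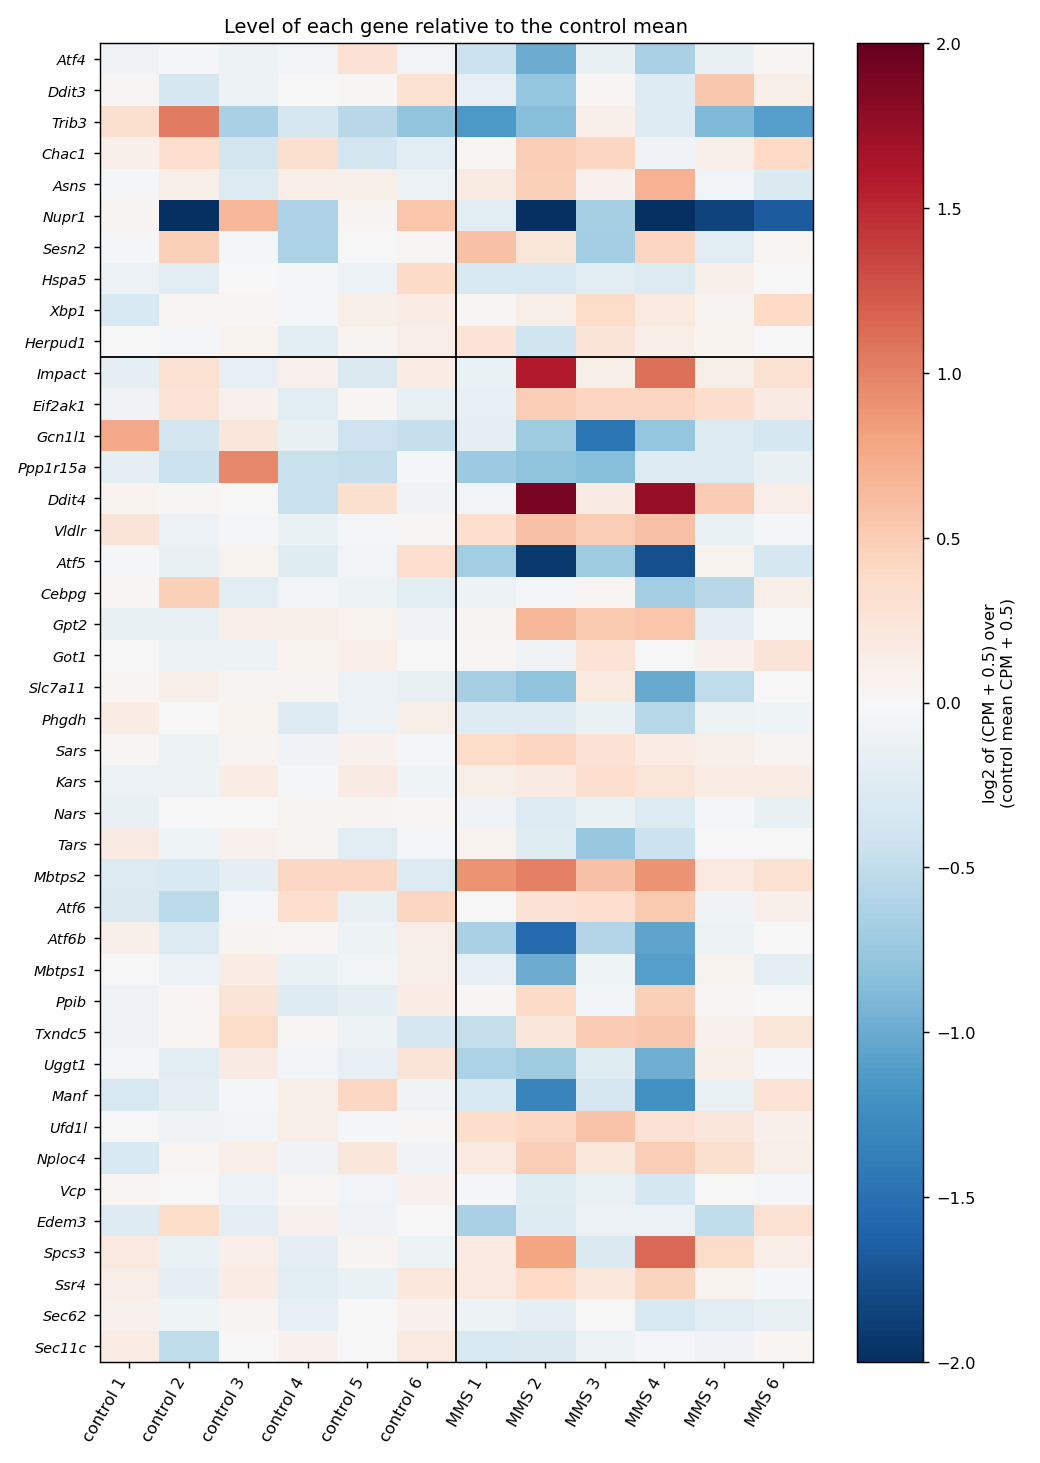
Level of the 10 genes (above the line) and of the 32 named wider genes (below) in each library, as log2 of CPM plus 0.5 over the control mean plus 0.5, red for higher and blue for lower, with colours ending at -2 and 2. The columns of MMS 2 and MMS 4 hold most of the strong colours, with Ddit4 and Impact in red and Atf5, Atf6b and Manf in blue, while 3 Nupr1 values lie below the end of the scale.

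Which genes varied together with these was read from the 10 libraries other than MMS 2 and MMS 4, after the group means were removed, for the 8 of the 10 genes with a mean of at least 50 counts. Pearson correlations are given as a description. Of the 8 genes, Ddit3 and Hspa5 were the pair most alike, at r = 0.85 (0.75 over all 12 libraries). Control 6 was the highest control for both (28.2 and 742 CPM), and MMS 5 the highest MMS library for both (33.3 and 608 CPM). The correlation without these libraries was not computed, and reads of Ddit3 may be mixed with those of Mars. Atf4 and Ddit3 were at 0.30 (0.67 over 12), Atf4 and Asns at -0.17 (-0.70 over 12) and Asns and Hspa5 at -0.58 (-0.65 over 12). Among the 9389 genes ranked, the 5 most like Hspa5 were Prkaca (0.96, and 0.83 over 12), Lrfn2 (0.94, 0.83), Svop (0.93, 0.86), Elp3 (0.92, 0.87) and Polr2c (0.92, 0.81). The 5 most like Atf4 were Maob (0.93, 0.81), Gsg1l (0.91, 0.66), Prrt1 (0.91, 0.78), Magoh (0.91, 0.87) and Actr3, which was at 0.91 over 10 libraries and -0.52 over 12. For the others the gene most alike was Aktip for Ddit3 (0.98, 0.82), Fzr1 for Chac1 (0.94, 0.14), Rlim for Asns (0.97, 0.57), Fam45a for Sesn2 (0.94, 0.89), Gse1 for Xbp1 (0.99, 0.71) and Smarcd3 for Herpud1 (0.92, 0.88). Of the 50 genes most like Hspa5, 4 were pathway genes (Uggt1, Ddit3, Atf5 and Hsp90b1), where pathway genes were 1.24% of those ranked. The same count was 1 for Atf4 and Chac1 each and 0 for Ddit3, Asns, Sesn2, Xbp1 and Herpud1. The points are libraries, which also share depth and cell composition. Genes named as most alike were picked as the highest of 9389 correlations over 10 libraries, so their r is high by selection. How high r gets by selection alone was not computed.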

How the data were processed

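Hypothalamic RNA of 12 pups was measured by 3′ mRNA-seq, which reads only the poly(A) end of each transcript. Sequencing used an Ion Proton instrument. The authors aligned reads to mm10 in Torrent Suite and deposited raw counts per gene without normalization or pooling. How reads were counted, with what use of strand and which annotation, was not stated in the labels or methods. For the group comparison Galaxy and Degust were used, with no model named.

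The 10 genes and all lists were chosen with earlier results of these data known. Groups and replicate numbers came from the sample titles. Nothing was normalized by transcript length. Genes passing the default filter of edgeR (minimum count 10, minimum total 15) were fitted with edgeR 4.0.16 in R 4.3.3 (TMM scaling, robust quasi-likelihood, two-sided, Benjamini-Hochberg over 13104 genes, threshold 0.05), and CPM used the same scaling. The tested genes held 99.6% of counts. Symbols in 27 rows had become dates, and these rows were kept unnamed. Named wider genes were the 2 with the smallest p in each direction per list among genes with a mean of at least 20 counts, and genes named outside this rule (Spats2l, those with a promoter element and those listed for MMS 2 and MMS 4) were chosen after their values were seen. For Ddit3, which has 2 overlapping records in GENCODE M21, the longer gave the coordinates. Alternatives were DESeq2 1.42.0, its size factors in edgeR, limma-voom 3.58.1, other count filters, a replicate block, 1 surrogate variable (sva 3.50.0), leaving out MMS 2 and MMS 4, and leaving out each library. The scripts were tested on simulated data. Within groups all 30 pairs of libraries differed by more than sampling noise (chi-square per degree of freedom 4.04 to 31.5). The labels give no litter, and p-values measure the spread between these pups as if they were independent.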

Additional observations from a re-analysis of the deposited data

Results flagged for a closer look

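Of 20 sets of 6 values (10 genes in each group), 2 held a library with a gap to its neighbours above the 95% critical value of Dixon's test for 6 values, where chance gives about 1. Atf4 was at 262 CPM in control 5 (gap ratio 0.843), with the other controls at 199 to 209 CPM. Hspa5 was at 742 CPM in control 6 (gap ratio 0.688), with the other controls at 491 to 569 CPM.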

How the results depend on the processing

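Under all 8 alternatives and when any 1 library was left out, 0 of the 10 genes passed the adjusted threshold. Atf4 and Nupr1 were at an unadjusted p under 0.05 in the main comparison. This count of 2 became 1 with a mean of at least 50 counts, which removes Nupr1 and Trib3 from the test, and 1 without MMS 2 and MMS 4, where Nupr1 alone was left. It was 1 (without control 5) to 3 with 1 library left out. With 1 surrogate variable the 2 genes were Nupr1 and Xbp1. The log2 fold change of Ddit3 turned to 0.20 with the surrogate variable, 0.17 without MMS 2 and MMS 4, and lay between -0.18 and 0.088 with 1 library left out, turning to 0.048, 0.0066, 0.088 and 0.021 without control 6, MMS 1, MMS 2 and MMS 4. Asns turned to -0.024 with the surrogate variable and -0.0023 without the pair, Sesn2 to -0.027 and Ppib to -0.00051 with the surrogate variable. The cause was not tested. Sesn2 lay between 0.04 and 0.25, Asns between 0.11 and 0.31, Nupr1 between -2.13 (without MMS 1) and -1.39 and Atf4 between -0.44 and -0.25 with 1 library left out.

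Over all tested genes the count past the adjusted threshold, 0 in edgeR, was 7 in DESeq2, 1 without a count filter, 4 with the surrogate variable, 5 without MMS 2 and MMS 4 and 0 to 1 with 1 library left out. The count at an unadjusted p under 0.05, 1190, was 2039 of 23550 without a filter, 690 with the surrogate variable, 674 without the pair and 700 (without MMS 2) to 1804 (without MMS 5) with 1 library left out, 707 without MMS 4. The 14 wider genes at that threshold were 6 without MMS 2 and 6 without MMS 4, and at most 19 with another library left out.

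Whether the replicate numbers of the titles pair littermates is not in the labels. The correlations below are too few to exclude a weak litter effect. Same-numbered libraries correlated at -0.05 to 0.12 in their deviations from the group means, 2 of 6 pairs were over 0.1, and 1 of 6 correlated best with its own number. With the replicate block 1 gene passed the adjusted threshold over all genes, Atf4 was at -0.38 and Nupr1 at -1.63 (edgeR adjusted p = 0.442 and 0.429). The block lowered the SE of Atf4 from 0.138 to 0.126 and that of Nupr1 from 0.530 to 0.409. Depth limits Nupr1 and Trib3 most, with 1 to 41 and 6 to 38 counts per library.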
